A study of Homo sapiens with 14 samples.

Results

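The collagen chain genes are the 44 genes of the table whose symbol has the form COL, a type number, the letter A and a chain number, out of 26144 named genes. Membership was set by symbol, with earlier results of these data known. Where a symbol stood at several loci, the locus with the highest mean over all libraries was used. RNA was measured by poly(A) sequencing in MCF-10A, an immortalised human mammary epithelial line that forms no tumours, harvested 2 days after infection with pMSCV retroviruses. The levels are FPKM, fragment numbers scaled to gene length and library size, so genes can be set beside each other.

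The 7 groups hold 2 libraries each. In 4 of them the cells carried MRTFB, a coactivator of the transcription factor SRF that actin monomers hold back. All 4 forms were dN forms, which G-actin does not bind. MRTFB dN Y305A/dPY was deficient in binding to both SRF and YAP, MRTFB dN Y305A in binding to SRF, MRTFB dN dPY in binding to YAP, and MRTFB dN in neither. Another group carried YAP 5SA, a hyperactive form of YAP, the coactivator of the TEAD factors. The remaining groups carried an empty Puro or an empty Hygro vector. Which vector held which construct is not in the labels. MRTFB forms were set against the Puro vector and YAP 5SA against the Hygro vector. Nor do the labels say whether the 2 libraries of a group came from separate cultures. The p-values rest on the spread between libraries within groups, pooled over all groups, and that spread may be technical.

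Collagens are matrix proteins in which chains wind into helical trimers. Fibrillar collagens build the cables of connective tissue, type IV collagens the sheet of the basement membrane on which epithelial cells sit, and the rest decorate fibrils, form other networks, anchor the sheet or span the cell membrane. Chains are hydroxylated and folded in the endoplasmic reticulum, leave it in enlarged transport vesicles, and are trimmed and crosslinked outside the cell. An epithelial cell is known mainly for type IV, type VII and type XVII collagen, and a fibroblast for types I, III, V and VI. The chains were sorted by these roles into 11 fibrillar, 8 basement membrane (type IV, COL15A1 and COL18A1) and 25 other chains.

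Several type IV genes lie head to head in pairs and share the DNA between their starts. COL4A1 and COL4A2 were 127 bases apart from start to start, COL4A3 and COL4A4 were 419 apart, and COL4A5 and COL4A6 were 380 or 1416 apart, depending on the COL4A6 start. The stretch between COL4A1 and COL4A2 is shown because both genes changed together, the sequence before COL4A3 because it had the smallest p of the chains in YAP 5SA, and the sequence before COL12A1 because it changed in both YAP 5SA and MRTFB dN. All are RefSeq sequences on build GRCh38.p14, which is not the build of the deposited table. Capitals mark CCAAT, the box bound by the factor NF-Y, or GGAATG, the core bound by TEAD factors.
COL4A1 to COL4A2, chr13:110307158-110307283, plus strand: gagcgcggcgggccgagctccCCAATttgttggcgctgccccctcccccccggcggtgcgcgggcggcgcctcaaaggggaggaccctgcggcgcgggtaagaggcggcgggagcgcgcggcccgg
COL4A3, chr2:227164374-227164623, plus strand: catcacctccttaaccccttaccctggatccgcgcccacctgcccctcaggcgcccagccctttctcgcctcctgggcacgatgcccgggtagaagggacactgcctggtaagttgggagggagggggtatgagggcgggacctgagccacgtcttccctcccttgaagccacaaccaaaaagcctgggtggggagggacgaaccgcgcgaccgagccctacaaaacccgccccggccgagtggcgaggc
COL12A1, chr6:75206054-75206303, minus strand: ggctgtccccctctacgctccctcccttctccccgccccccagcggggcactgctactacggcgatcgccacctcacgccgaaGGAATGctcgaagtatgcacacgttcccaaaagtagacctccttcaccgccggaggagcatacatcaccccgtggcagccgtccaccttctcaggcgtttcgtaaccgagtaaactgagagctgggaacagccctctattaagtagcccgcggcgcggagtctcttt

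Of the 44 chains, 32 were found by symbol in the set of RefSeq promoter sequences used here. The tested chains COL8A1, COL1A1, COL3A1, COL5A2 and COL6A1 were not in that set and were not searched. In the 250 bases before the start, GGAATG or its reverse complement CATTCC was in 3 of the 32 (9.38%), against 14.3% of 27305 genes. Among the 16 of these that were expressed enough to be tested it was in COL12A1 alone (6.25%). The CArG box, the element bound by SRF, was in 0 of the 32 and in 1.44% of all genes. CCAAT or ATTGG was in 11 of the 32 (34.4%), against 37% of all genes. Both strands were searched in each case, matches of different words can share bases, and a match is a description of the letters only.

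Much of the family was silent in these cells. A level of 1 FPKM was reached in any library by 22 of the 44 chains, in at least 2 libraries by 21, and in all 14 libraries by 6. The 21 were the ones tested: 5 of 11 fibrillar chains (COL1A1, COL3A1, COL5A2, COL5A3 and COL27A1), 8 of 8 basement membrane chains and 8 of 25 other chains. Of the rest, 20 stayed below 0.5 FPKM in every library. Among the tested chains, COL3A1 reached 1 FPKM only in MRTFB dN, COL15A1 only in MRTFB dN and MRTFB dN dPY, and COL18A1 only in the Puro vector. The epithelial label of the line was checked on marker genes. Of 8 basal epithelial markers, 7 or 8 reached 1 FPKM in every library, against 1 or 2 of 8 fibroblast markers and 0 or 1 of 5 endothelial markers.

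Each construct could be read in its own libraries. MRTFB, listed under its older symbol MKL2, spanned 165 to 610 FPKM in cells given any MRTFB form, against 6.6 and 3.66 FPKM with the Puro vector. YAP1 reached 625 and 529 FPKM with YAP 5SA, against 32.4 and 23.3 FPKM with the Hygro vector. Puro vector replicate 1 stood apart, with 4780 unnamed loci at 1 FPKM or more (211 to 669 in the others) and the lowest relative depth. MRTFB dN dPY replicate 1 is empty on chromosomes 8, 9 and X and on part of chromosome 7, which removes its value for COL4A5, COL4A6, COL15A1, COL27A1 and 5 untested chains. Absolute depth is unknown, since the table holds no counts.

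MRTFB dN and MRTFB dN dPY cells held more collagen RNA than any other group, and most of it came from 1 gene. The summed FPKM of the chains was 2962 and 3420 in MRTFB dN dPY and 3599 and 3633 in MRTFB dN, against 186 and 373 in the Puro vector. It was 127 to 239 in the MRTFB forms with Y305A, 499 and 294 in YAP 5SA and 222 and 301 in the Hygro vector. COL8A1 made up 66.7% and 59.6% of that sum in MRTFB dN dPY and 60.6% and 62.9% in MRTFB dN, and 0.831% to 14.4% in the other libraries. The fibrillar class never exceeded 2.38% of the sum, at 2.04 to 15.5 FPKM for all 11 chains together. Type IV chains held 19% to 62.4% and COL17A1 6.39% to 49%.

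**Figure D1:**
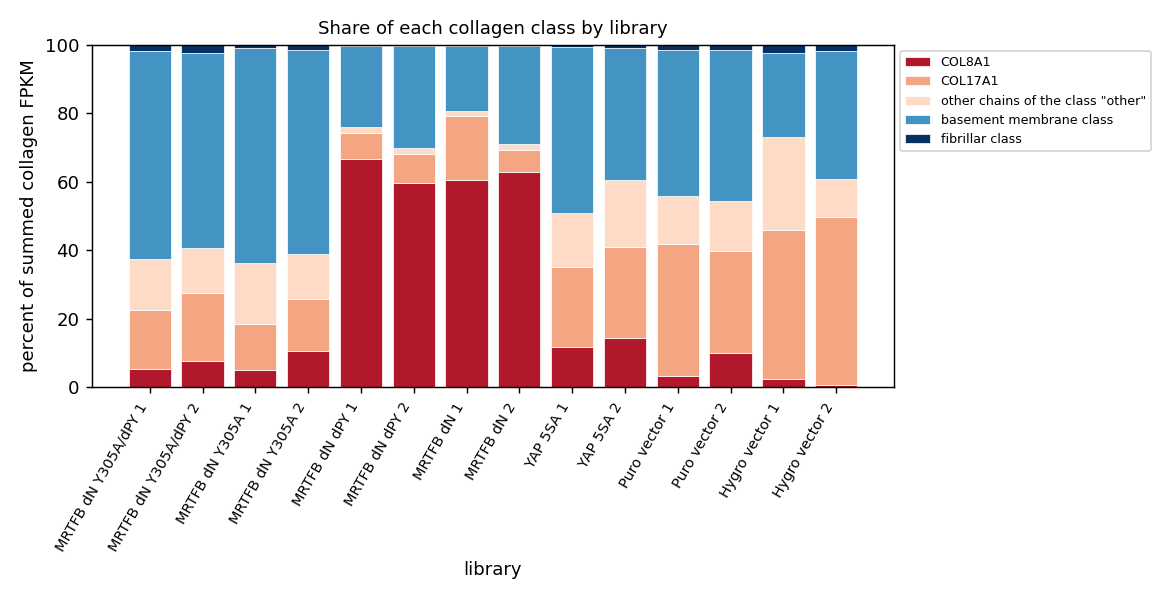
Share of the summed FPKM of the 44 collagen chains (percent, y axis) taken by COL8A1, COL17A1, the other chains of the class "other", the basement membrane class and the fibrillar class, 1 bar per library. COL8A1 fills 59.6% to 66.7% of the bar in the 4 libraries of MRTFB dN dPY and MRTFB dN, and at most 14.4% elsewhere.

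COL8A1, a network-forming chain of the Descemet membrane of the eye and of vessel walls, was the member that moved most. Its level was 6.65 and 18.3 FPKM in MRTFB dN Y305A/dPY, 9.72 and 25.1 in MRTFB dN Y305A, 1977 and 2038 in MRTFB dN dPY and 2180 and 2284 in MRTFB dN, against 6.31 and 37.7 in the Puro vector. The 4 libraries with SRF binding were far above all others, and those with Y305A overlapped the Puro vector. The rise was 7.05 ± 0.72 on the log2 scale in MRTFB dN over the Puro vector (133-fold; limma on log2(FPKM + 1), adjusted p = 5.8e-05). Errors here and below are standard errors of that fit, with n = 2 libraries a group, and fold changes are on the log2(FPKM + 1) scale, which understates those of low genes. MRTFB dN dPY rose by 6.90 ± 0.72 over the same vector (adjusted p = 6.5e-05). Without Puro vector replicate 1 the rises were 5.85 and 5.70, still past the threshold.

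In YAP 5SA, COL8A1 was at 58.2 and 42.5 FPKM, against 5.27 and 2.50 FPKM in the Hygro vector, a rise of 3.44 ± 0.72 (adjusted p = 0.017). The YAP 5SA level lay above both Hygro libraries but close to Puro vector replicate 2. With the Puro vector as control the difference was 1.59 (adjusted p = 0.18), and the call against the Hygro vector was lost without Hygro vector replicate 2 (adjusted p = 0.088), YAP 5SA replicate 1 (0.11) or YAP 5SA replicate 2 (0.1). COL8A2, its usual partner chain, did not exceed 0.0715 FPKM in any library. The COL8A1 locus of the table also carries the name of a microRNA, MIR548G, and reads of the pair cannot be separated.

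**Figure D2:**
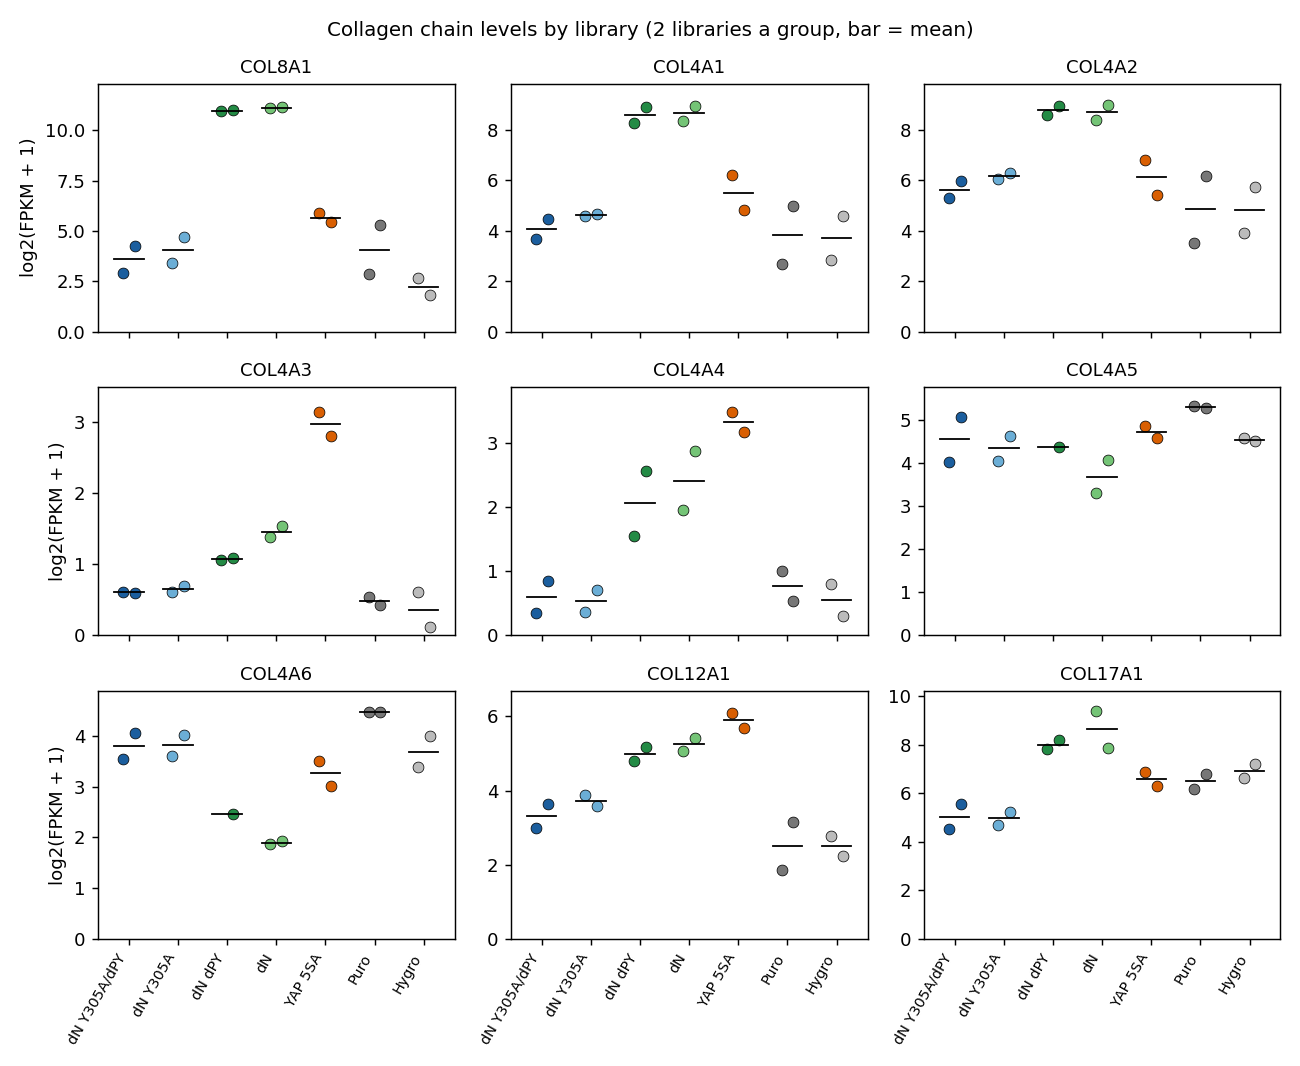
Level of 9 collagen chains, as log2(FPKM + 1) on the y axis, in each library (points) of the 7 groups (x axis), with the group mean as a bar. COL8A1, COL4A1 and COL4A2 stand highest in MRTFB dN dPY and MRTFB dN, COL4A3, COL4A4 and COL12A1 in YAP 5SA, and COL4A6 is lowest in MRTFB dN.

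Across the family, MRTFB dN changed more tested chains than it left alone: 10 of 21 were higher and 5 lower than in the Puro vector, while 36.7% of all 13137 tested loci passed an adjusted p of 0.05 (21.8% higher, 15% lower). MRTFB dN dPY gave 9 higher and 3 lower (35.8% of all loci, 21% higher and 14.9% lower). YAP 5SA gave 4 higher and 1 lower against the Hygro vector (8.21% of all loci, 3.91% higher and 4.3% lower). The SRF-binding-deficient forms gave 1 higher and 2 lower for MRTFB dN Y305A/dPY (26.4% of all loci, 15% higher and 11.4% lower) and 2 higher and 1 lower for MRTFB dN Y305A (25.1%, 14.2% higher and 11% lower). The 4 MRTFB comparisons share the Puro libraries. The counts include calls of COL3A1, COL15A1 and COL18A1, which passed the level filter only through groups in which they are high.

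The class medians lay above that of all loci in MRTFB dN. In MRTFB dN over the Puro vector the median log2 fold change was 0.92 over the 5 tested fibrillar chains, 1.31 over the 8 basement membrane chains and 0.69 over the 8 other chains, against 0.09 over all tested loci. In YAP 5SA over the Hygro vector the medians were −0.01, 0.73 and −0.19, against −0.01 over all loci. The basement membrane class was the one in which every tested chain passed in MRTFB dN, with 5 higher and 3 lower. Of these, COL15A1 was tested only through SRF-binding MRTFB libraries (2.1 to 4.22 FPKM) and COL18A1 only through the Puro libraries (1.56 and 1.21 FPKM). Their calls were favoured by the filter and say nothing about the class, though they enter its count and median. Counting COL7A1 and COL17A1 with the basement membrane class changed its median in YAP 5SA to 0.10 over 10 chains and left that in MRTFB dN at 1.31.

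**Figure D3:**
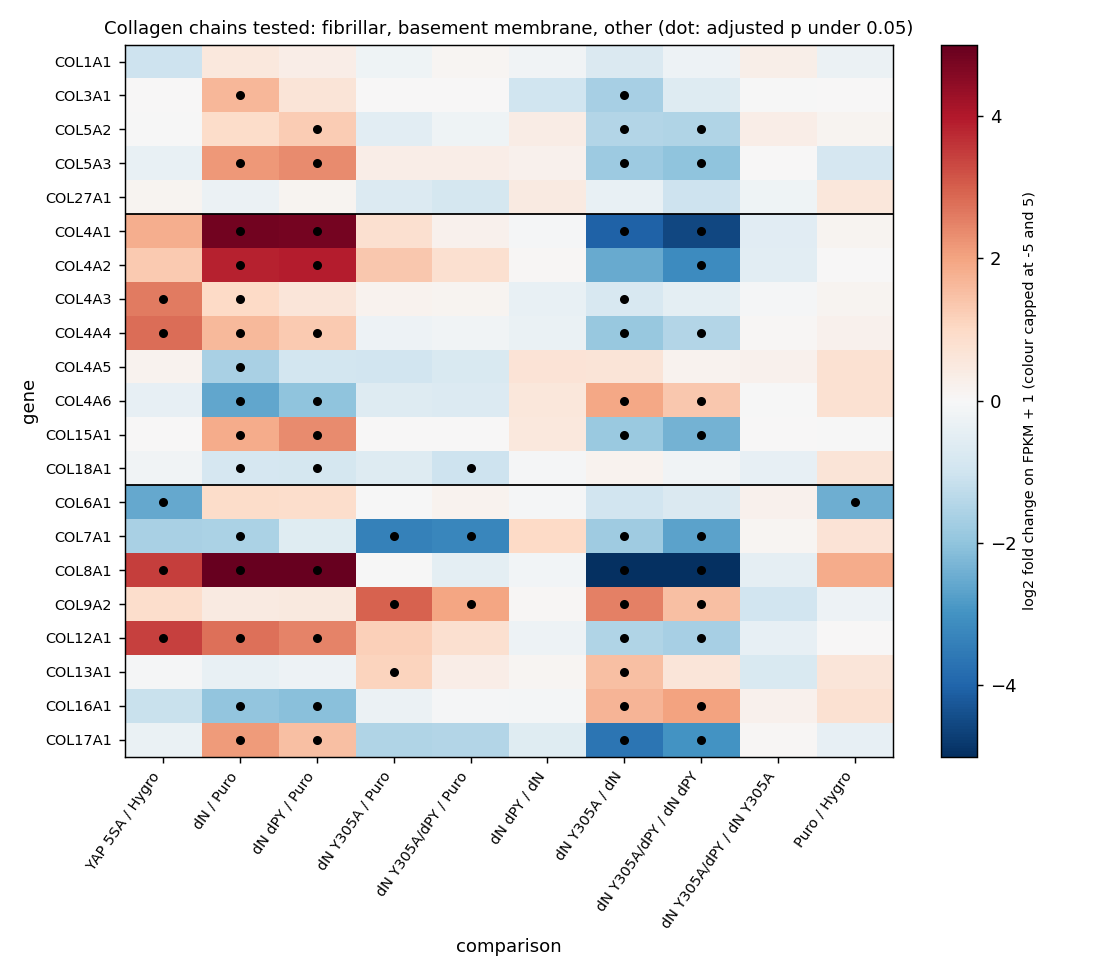
Log2 fold change on FPKM + 1 (colour, capped at 5 either way) of the 21 tested collagen chains (rows, in fibrillar, basement membrane and other blocks) in 10 comparisons (columns). A dot marks an adjusted p under 0.05. Dots mark 57.1% to 71.4% of the chains in the columns of MRTFB dN and MRTFB dN dPY over the Puro vector and of the Y305A forms over their SRF-binding counterparts. They are absent where the dPY forms are set against their YAP-binding counterparts.

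COL4A1 and COL4A2, the chains of the basement membrane network found in nearly all tissues, had the highest means of the type IV chains over all libraries. COL4A1 was at 11.8 and 20.9 FPKM in MRTFB dN Y305A/dPY, 23.2 and 24.3 in MRTFB dN Y305A, 309 and 486 in MRTFB dN dPY and 332 and 501 in MRTFB dN, against 5.40 and 30.8 in the Puro vector. COL4A2 was at 38 and 62.2, 66 and 76.8, 385 and 495, and 336 and 512 FPKM in the same order, against 10.4 and 72 in the Puro vector. In the 4 SRF-binding MRTFB libraries both genes were above every other library, with no overlap. In MRTFB dN, COL4A1 rose by 4.84 ± 0.77 (adjusted p = 0.0011) and COL4A2 by 3.85 ± 0.82 (adjusted p = 0.0051). Without Puro vector replicate 1 these were 3.69 and 2.51, also past the threshold.

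In YAP 5SA, COL4A1 was at 72.8 and 27.3 FPKM and COL4A2 at 112 and 41.9 FPKM, against 6.10 and 23.3 and against 14.2 and 51.8 FPKM in the Hygro vector. The replicates were as far apart as the groups, and neither passed (1.80 ± 0.77, adjusted p = 0.18, and 1.29 ± 0.82, adjusted p = 0.39). The balance within the pair differed by group. The ratio of COL4A1 to COL4A2 was 0.311 to 0.351 in the libraries with Y305A, 0.804 and 0.983 in MRTFB dN dPY and 0.99 and 0.979 in MRTFB dN, against 0.521 and 0.428 in the Puro vector. It was 0.653 and 0.651 in YAP 5SA, against 0.429 and 0.45 with the Hygro vector. These ratios were not tested.

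COL4A3 and COL4A4, chains of the network of kidney, lung and inner ear, were low in these cells and highest in YAP 5SA. COL4A3 was at 7.83 and 5.97 FPKM under YAP 5SA, against 0.525 and 0.0806 with the Hygro vector, and COL4A4 at 10.3 and 8.08 FPKM, against 0.749 and 0.231. Neither gene overlapped between these groups, and both rose: COL4A3 by 2.61 ± 0.22 (adjusted p = 1.5e-04) and COL4A4 by 2.79 ± 0.40 (adjusted p = 0.0033). In place of the Hygro vector, the Puro vector gave 2.49 and 2.57, both past the threshold.

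Both genes also rose in MRTFB dN. COL4A3 was at 0.528 and 0.517 FPKM in MRTFB dN Y305A/dPY, 0.528 and 0.621 in MRTFB dN Y305A, 1.09 and 1.12 in MRTFB dN dPY and 1.61 and 1.89 in MRTFB dN, against 0.448 and 0.340 in the Puro vector. COL4A4 was at 0.273 and 0.800, 0.282 and 0.625, 1.94 and 4.94, and 2.89 and 6.35 FPKM in the same order, against 1.01 and 0.454 in the Puro vector. Both were above the Puro vector in each SRF-binding library. In MRTFB dN, COL4A3 rose by 0.98 ± 0.22 (adjusted p = 0.0067) and COL4A4 by 1.64 ± 0.40 (adjusted p = 0.0099). The COL4A4 call was lost without MRTFB dN replicate 2 (adjusted p = 0.075).

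COL4A5 and COL4A6, whose trimers lie in the basement membranes of skin and smooth muscle, moved the other way in MRTFB dN. COL4A6 was at 10.7 and 15.7 FPKM in MRTFB dN Y305A/dPY, 11.2 and 15.3 in MRTFB dN Y305A, 4.50 in the 1 usable library of MRTFB dN dPY and 2.63 and 2.80 in MRTFB dN, against 21.1 and 21.3 in the Puro vector. COL4A5 was at 15.3 and 32.7, 15.6 and 23.8, 19.8, and 8.83 and 15.9 FPKM in the same order, against 39.4 and 37.9 in the Puro vector. All MRTFB libraries were below the Puro vector for both genes. COL4A6 fell by 2.58 ± 0.30 on the log2 scale in MRTFB dN (adjusted p = 2.4e-04) and COL4A5 by 1.62 ± 0.39 (adjusted p = 0.01). Against the Hygro vector COL4A6 still passed (−1.80, adjusted p = 0.0024) and COL4A5 did not (−0.86, adjusted p = 0.16), nor did COL4A5 pass without MRTFB dN replicate 1 (adjusted p = 0.096). In YAP 5SA, COL4A5 was at 28.3 and 22.9 FPKM, against 23.1 and 21.7 in the Hygro vector, and COL4A6 at 10.4 and 7.07 FPKM, against 9.44 and 14.9. Neither passed there.

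**Figure D4:**
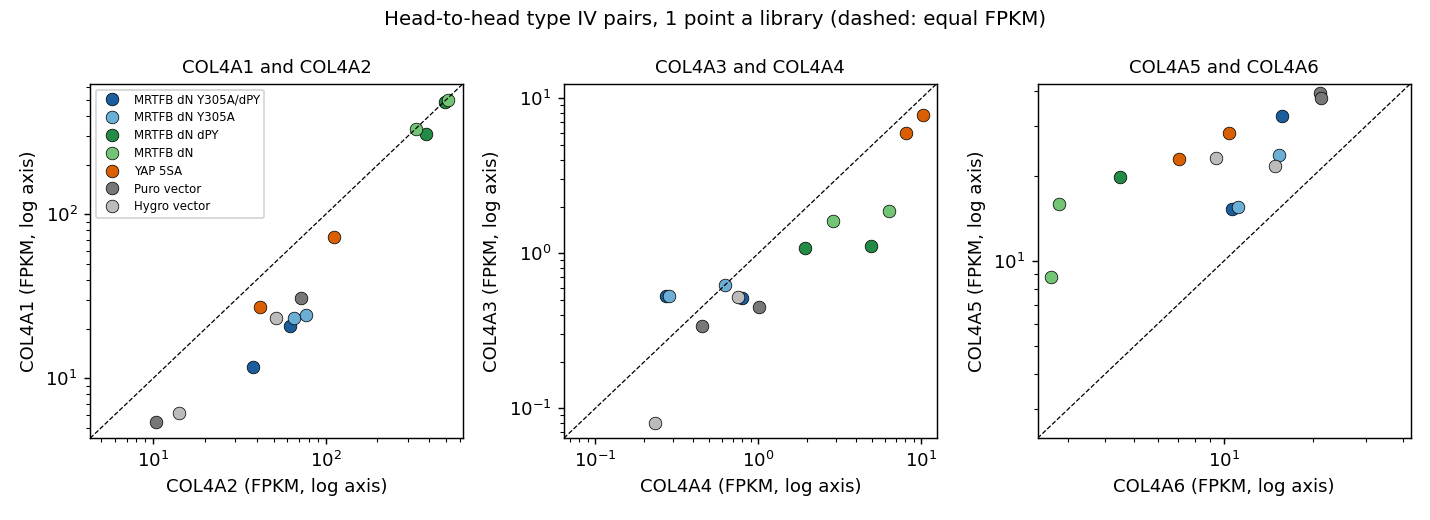
FPKM of the genes of each head-to-head type IV pair, plotted against each other on log axes, 1 point a library and 1 colour a group (dashed line: equal FPKM). COL4A1 and COL4A2 meet the line in MRTFB dN, where their ratio is 0.99 and 0.979, and COL4A3 and COL4A4 are highest in YAP 5SA.

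The other basement membrane chains are COL15A1 and COL18A1, proteoglycan cores that link the sheet to the tissue below and carry the fragments restin and endostatin at their ends. COL15A1 was at 4.22 FPKM in the 1 usable library of MRTFB dN dPY and 2.1 and 3.12 FPKM in MRTFB dN. It was at most 0.0279 FPKM in the other libraries, both Puro libraries being listed at 0. It rose by 1.84 ± 0.20 in MRTFB dN (adjusted p = 1.5e-04). COL18A1 stayed between 0.133 and 1.56 FPKM and fell by 0.83 ± 0.22 in MRTFB dN (adjusted p = 0.016), a call lost without MRTFB dN replicate 1 (adjusted p = 0.079), without Puro vector replicate 1 (0.06) or with the Hygro vector as control (0.63).

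Of the 5 tested fibrillar chains, 2 rose in MRTFB dN dPY and 2 in MRTFB dN, all from a low base (21% and 21.8% of all loci were higher). COL3A1, counted in MRTFB dN, was tested only because the MRTFB dN libraries reached 1 FPKM, so its rise says nothing about the class. COL5A3, a chain that tunes fibril width, was at 0.502 and 0.360 FPKM in MRTFB dN Y305A/dPY, 0.553 and 0.321 in MRTFB dN Y305A, 5.52 and 4.22 in MRTFB dN dPY and 4.72 and 3.52 in MRTFB dN, against 0.1 and 0.16 in the Puro vector. The SRF-binding libraries were above all others, Hygro vector replicate 2 at 2.02 FPKM being the nearest. COL5A3 was at 0.708 and 0.426 FPKM under YAP 5SA, against 0.345 and 2.02 with the Hygro vector. COL5A3 rose by 2.17 ± 0.33 in MRTFB dN (adjusted p = 8.7e-04), and COL3A1, the chain of the thin fibrils of soft tissue, by 1.67 ± 0.33 (adjusted p = 0.0036). COL3A1 was at 1.13 and 3.76 FPKM in MRTFB dN, 0.263 and 0.981 in MRTFB dN dPY and at most 0.0118 elsewhere. COL5A2 was at 0.771 and 1.03 FPKM in MRTFB dN Y305A/dPY, 0.445 and 0.59 in MRTFB dN Y305A, 7.49 and 2.34 in MRTFB dN dPY and 4.30 and 2.25 in MRTFB dN, against 1.17 and 1.23 in the Puro vector. COL5A2 was at 1.03 and 0.972 FPKM under YAP 5SA, against 1.26 and 0.801 with the Hygro vector. It passed in MRTFB dN dPY (1.28 ± 0.38, adjusted p = 0.024), but not without MRTFB dN dPY replicate 1 (adjusted p = 0.2), Puro vector replicate 1 (0.083) or Puro vector replicate 2 (0.06). COL1A1 (0.485 to 3.12 FPKM) and COL27A1 (0.0154 to 2.16 FPKM) passed in no comparison. No fibrillar chain passed in YAP 5SA, and 1 (COL1A1) had an unadjusted p under 0.05.

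Several expressed chains stood without the partner they are known to assemble with. COL1A1 had a mean of 1.98 FPKM while COL1A2 did not exceed 0.0359. COL5A1 did not exceed 0.078 FPKM beside COL5A2 and COL5A3, nor COL6A2 and COL6A3 0.125 FPKM beside COL6A1. COL9A3 did not exceed 0.055 FPKM and COL9A1 was at 0 in every library beside COL9A2. COL1A2 and COL5A1 lie in the empty part of MRTFB dN dPY replicate 1.

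COL12A1, a chain that sits on fibril surfaces and links them to the matrix around, rose with both coactivators. It was at 6.92 and 11.5 FPKM in MRTFB dN Y305A/dPY, 13.6 and 11 in MRTFB dN Y305A, 26.9 and 34.9 in MRTFB dN dPY and 32.7 and 41.8 in MRTFB dN, against 2.63 and 7.97 in the Puro vector. It was at 67.5 and 50.9 FPKM under YAP 5SA, against 5.82 and 3.70 with the Hygro vector. The YAP 5SA libraries were the highest of all 14. The rise was 3.40 ± 0.41 in YAP 5SA (adjusted p = 0.0014), 2.47 ± 0.41 in MRTFB dN dPY (adjusted p = 0.0014) and 2.74 ± 0.41 in MRTFB dN (adjusted p = 7.8e-04). MRTFB dN Y305A did not pass (1.21 ± 0.41, adjusted p = 0.052), except without Puro vector replicate 2 (1.87, adjusted p = 0.0068). COL12A1 is the only 1 of the 16 tested chains searched that has GGAATG in its upstream sequence, printed above.

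COL16A1, a chain of the same fibril-associated group, went down with MRTFB dN. It was at 1.94 and 7.92 FPKM in MRTFB dN Y305A/dPY, 2.17 and 5.12 in MRTFB dN Y305A, 0.118 and 0.447 in MRTFB dN dPY and 0.275 and 0.478 in MRTFB dN, against 2.58 and 7.05 in the Puro vector. The SRF-binding libraries lay below the Puro vector and below both Y305A groups. COL16A1 was at 0.495 and 0.374 FPKM under YAP 5SA, against 2.16 and 2.12 with the Hygro vector, and did not pass. COL16A1 fell by 1.97 ± 0.51 in MRTFB dN (adjusted p = 0.014), a call lost without MRTFB dN replicate 1 (adjusted p = 0.087), without Puro vector replicate 2 (0.084) or with the Hygro vector as control (0.14).

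COL9A2, a cartilage chain of that group, was highest where SRF binding was lost. It was at 4.91 and 3.14 FPKM in MRTFB dN Y305A/dPY, 11.4 and 6.56 in MRTFB dN Y305A, 1.54 and 0.216 in MRTFB dN dPY and 0.931 and 0.480 in MRTFB dN, against 0.295 and 0.191 in the Puro vector. COL9A2 was at 1.7 and 1.69 FPKM under YAP 5SA, against 0.249 and 0.717 with the Hygro vector, and did not pass. The libraries with Y305A were above all others. The rise was 1.99 ± 0.37 in MRTFB dN Y305A/dPY (adjusted p = 0.0058) and 2.96 ± 0.37 in MRTFB dN Y305A (adjusted p = 0.0017), and the MRTFB dN Y305A/dPY call was lost without its replicate 1 (adjusted p = 0.063). COL13A1, a membrane-spanning chain at cell contacts, was at 2.86 and 2.24 FPKM in MRTFB dN Y305A, against 0.277 and 1.07 in the Puro vector (1.12 ± 0.23, adjusted p = 0.01; 0.1 without MRTFB dN Y305A replicate 1).

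COL17A1 and COL7A1 anchor epithelial cells. COL17A1, the membrane-spanning chain of the hemidesmosome, was at 22 and 45.6 FPKM in MRTFB dN Y305A/dPY, 25.1 and 36.8 in MRTFB dN Y305A, 224 and 294 in MRTFB dN dPY and 673 and 232 in MRTFB dN, against 71.5 and 111 in the Puro vector. The SRF-binding libraries were above and the Y305A libraries below the Puro vector. COL17A1 was at 117 and 78 FPKM under YAP 5SA, against 97.1 and 148 with the Hygro vector, and did not pass. COL17A1 rose by 2.14 ± 0.53 in MRTFB dN (adjusted p = 0.01), a call lost without MRTFB dN replicate 1 (adjusted p = 0.1) or Puro vector replicate 1 (0.068). MRTFB dN Y305A/dPY (−1.46 ± 0.53, adjusted p = 0.062) and MRTFB dN Y305A (−1.52 ± 0.53, adjusted p = 0.056) did not pass. After median-of-ratios scaling both did (−1.79, adjusted p = 0.028, and −1.89, adjusted p = 0.024), as did MRTFB dN Y305A/dPY without its replicate 2 (−1.97, adjusted p = 0.045).

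COL7A1, the chain of the anchoring fibrils below the basement membrane, was at 0.719 and 2.60 FPKM in MRTFB dN Y305A/dPY, 0.553 and 2.42 in MRTFB dN Y305A, 12.1 and 17.7 in MRTFB dN dPY and 5.49 and 8.72 in MRTFB dN, against 15.5 and 33.2 in the Puro vector. The Y305A libraries were the lowest of all. COL7A1 fell by 3.25 ± 0.50 in MRTFB dN Y305A/dPY (adjusted p = 0.0033) and by 3.36 ± 0.50 in MRTFB dN Y305A (adjusted p = 0.0035). In MRTFB dN it fell by 1.58 ± 0.50 (adjusted p = 0.03), a call lost without MRTFB dN replicate 1 (adjusted p = 0.19), MRTFB dN replicate 2 (0.053) or Puro vector replicate 2 (0.17), or with the Hygro vector as control (0.26). In YAP 5SA the COL7A1 level was 4.97 and 2.69 FPKM, against 12.7 and 14.7 in the Hygro vector, and did not pass (−1.64 ± 0.50, adjusted p = 0.07), although it did with the Puro vector as control (−2.34, adjusted p = 0.018). The COL3A1, COL7A1 and COL17A1 loci also carry microRNA names, and that of COL7A1 carries UCN2.

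COL6A1, a chain of beaded filaments, differed between the empty vectors. It was at 4.21 and 1.64 FPKM in YAP 5SA and 2.16 and 3.91 FPKM in the Puro vector, against 38.6 and 10.8 FPKM in the Hygro vector. It was at 2.86 and 4.12 FPKM in MRTFB dN Y305A/dPY, 2.4 and 3.35 in MRTFB dN Y305A, 6.85 and 5.71 in MRTFB dN dPY and 6.25 and 6.81 in MRTFB dN. Both Hygro libraries were above all others. COL6A1 fell by 2.54 ± 0.50 in YAP 5SA (adjusted p = 0.013) and by 2.45 ± 0.50 in the Puro vector (adjusted p = 0.016), where it was the only tested chain to pass (14.2% of all loci, 5.67% higher and 8.52% lower). Against the Puro vector the YAP 5SA difference was −0.09 (adjusted p = 0.94). The YAP 5SA call was lost without Hygro vector replicate 1 (adjusted p = 0.062) or YAP 5SA replicate 2 (0.15), and that of the Puro vector without Puro vector replicate 1 (0.07).

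Loss of SRF binding was tested directly between MRTFB forms. In MRTFB dN Y305A, 4 of 21 chains were higher and 11 lower than in MRTFB dN, while 16.6% of all tested loci passed (6.1% higher, 10.6% lower). In MRTFB dN Y305A/dPY, 3 were higher and 10 lower than in MRTFB dN dPY (17.3% of all loci, 6.71% higher and 10.6% lower). The median over the fibrillar, basement membrane and other chains was −1.45, −1.32 and −1.24 in the first of these and −1.03, −0.97 and −1.19 in the second, against 0.03 and 0.04 over all loci. Counting COL7A1 and COL17A1 with the basement membrane class moved its median to −1.81 and −1.91 over 10 chains. The median of the other chains was then 0.26 and −0.04 over 6 chains. Of the chains counted as lower, COL15A1 (in both comparisons) and COL3A1 (over MRTFB dN) were tested only through SRF-binding MRTFB libraries.

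COL8A1 fell by 7.06 ± 0.72 in MRTFB dN Y305A (adjusted p = 6.3e-05) and COL4A1 fell by 4.05 ± 0.77 (adjusted p = 0.0041). COL17A1 fell by 3.66 ± 0.53 (adjusted p = 7.0e-04), COL15A1 fell by 1.84 ± 0.20 (adjusted p = 1.6e-04) and COL5A3 fell by 1.83 ± 0.33 (adjusted p = 0.0032). COL4A2 did not pass there (−2.52 ± 0.82, adjusted p = 0.059), though 3 of 13 alternatives passed (0.015 with only the compared groups in the fit). It passed in MRTFB dN Y305A/dPY over MRTFB dN dPY (−3.14 ± 0.82, adjusted p = 0.023; 0.059 to 0.12 without any 1 of those 4 libraries). The chains that rose were COL4A6, COL9A2, COL13A1 and COL16A1 in MRTFB dN Y305A, and the same without COL13A1 in MRTFB dN Y305A/dPY. COL4A6 rose by 1.92 ± 0.30 (adjusted p = 0.0017) and COL9A2 by 2.52 ± 0.37 (adjusted p = 7.7e-04) in MRTFB dN Y305A.

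Some of these calls rested on single libraries and on other settings of the fit. Of the 13 alternatives for MRTFB dN Y305A over MRTFB dN, the call of COL16A1 was lost in 8. Those of COL4A3 and COL7A1 were lost in 6 each, that of COL12A1 in 5 and that of COL5A2 in 4. These include the single libraries left out. In MRTFB dN Y305A over MRTFB dN, the call of COL4A4 was lost without MRTFB dN Y305A replicate 1 or MRTFB dN replicate 2, and that of COL5A2 without MRTFB dN Y305A replicate 1 or 2 or MRTFB dN replicate 1. The COL7A1 call was lost without MRTFB dN Y305A replicate 1 or either MRTFB dN library, and that of COL16A1 without MRTFB dN Y305A replicate 2 or either MRTFB dN library (adjusted p of 0.059 to 0.29 in all). Those of COL4A3 and COL12A1 were lost without any 1 of the 4 libraries (adjusted p of 0.076 to 0.14 and of 0.075 to 0.17). The MKL2 level was 404 and 294 FPKM in MRTFB dN Y305A, against 300 and 165 FPKM in MRTFB dN, and its part in these differences was not tested.

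With loss of YAP binding no collagen chain passed the test. In MRTFB dN dPY over MRTFB dN, 0 of 21 passed with limma and 2 had an unadjusted p under 0.05, while 0.236% of all loci passed (0.145% higher, 0.0913% lower). Those 2 were COL3A1 (−1.01 ± 0.33, adjusted p = 0.73) and COL15A1 (0.54 ± 0.24, adjusted p = 1, from 1 library of MRTFB dN dPY). In MRTFB dN Y305A/dPY over MRTFB dN Y305A, 0 of 21 passed and 2 had an unadjusted p under 0.05, COL9A2 (−0.97 ± 0.37) and COL13A1 (−0.78 ± 0.23), while 0.0152% of all loci passed, all of them lower. The standard errors of the chains ran from 0.20 to 0.82 on the log2 scale, which limits what could be detected.

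MRTFB dN and YAP 5SA were compared through the difference of their effects, each over its own vector. The signed difference, MRTFB dN effect minus YAP 5SA effect, passed as positive for 6 chains and as negative for 3 (28.9% of all loci, 17.9% and 11.1% by direction). It was positive for COL8A1 by 3.61 ± 1.01 (adjusted p = 0.023), COL5A3 by 2.54 ± 0.47 (adjusted p = 0.0038) and COL15A1 by 1.81 ± 0.28 (adjusted p = 0.0022). It was −1.63 ± 0.31 for COL4A3 (adjusted p = 0.0044), which rose with both. It was −2.15 ± 0.43 for COL4A6 (adjusted p = 0.0063), which fell in MRTFB dN and did not pass in YAP 5SA, and COL4A5 had the same pattern of calls. COL6A1, among the positive ones, passed as lower in YAP 5SA over the Hygro vector and did not pass in MRTFB dN. For COL4A1 (3.04 ± 1.08, adjusted p = 0.057), COL4A4 (−1.15 ± 0.57, adjusted p = 0.15) and COL12A1 (−0.66 ± 0.58, adjusted p = 0.41) it did not pass. Of the 17 alternatives for COL4A1, 4 passed, among them those without Hygro vector replicate 1 (adjusted p = 0.029) or Puro vector replicate 2 (0.01). The COL8A1 call was lost without any 1 of 6 libraries, Hygro vector replicate 2 and Puro vector replicate 2 being the exceptions (adjusted p of 0.052 to 0.079), and its value was 2.41 without Puro vector replicate 1. Without the vectors, in MRTFB dN directly against YAP 5SA, COL8A1 (5.46, adjusted p = 4.0e-04) and COL4A1 (3.16, adjusted p = 0.014) were higher in MRTFB dN.

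Genes that handle collagen moved with the chains in part. Of the enzymes that modify chains, 5 of 12 tested rose in MRTFB dN and none fell (36.7% of all loci passed in that comparison). PLOD2, a lysyl hydroxylase, was at 97.4 and 76.6 FPKM in MRTFB dN Y305A/dPY, 152 and 87.7 in MRTFB dN Y305A, 2312 and 1313 in MRTFB dN dPY and 1013 and 727 in MRTFB dN, against 19.7 and 64.8 in the Puro vector. P3H2, a prolyl 3-hydroxylase of type IV collagen, was at 17.7 and 20.6, 9.81 and 11.5, 233 and 237, and 334 and 328 FPKM in the same order, against 16.6 and 38.6. Both were above every other library in the SRF-binding forms. They rose by 4.54 ± 0.61 (adjusted p = 4.0e-04) and 3.65 ± 0.34 (adjusted p = 2.7e-05) in MRTFB dN, and P3H2 fell by 4.84 ± 0.34 in MRTFB dN Y305A over MRTFB dN (adjusted p = 3.8e-06). PLOD1 and P4HA2, a prolyl 4-hydroxylase subunit, also rose in MRTFB dN, by 2.60 ± 0.53 (adjusted p = 0.0043) and 2.57 ± 0.45 (adjusted p = 0.0018).

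Of the chaperones and the coat that carries collagen out of the endoplasmic reticulum, 6 of 10 tested rose in MRTFB dN and 1 fell (21.8% and 15% of all loci). Among those that rose, SPARC was tested only because it reached 1 FPKM in the SRF-binding MRTFB libraries (1.4 to 2.66 FPKM). The 1 that fell was CTAGE5, a partner of the cargo receptor for collagen (−1.68 ± 0.27, adjusted p = 0.001). SEC23A and SEC24D, coat subunits, rose by 2.60 ± 0.25 (adjusted p = 4.0e-05) and 2.11 ± 0.23 (adjusted p = 8.4e-05). SERPINH1, the collagen chaperone HSP47, rose by 1.90 ± 0.57 (adjusted p = 0.024), a call lost without Puro vector replicate 1 (0.87, adjusted p = 0.16), MRTFB dN replicate 1 (0.094) or MRTFB dN replicate 2 (0.091). TLL1, a protease that trims propeptides, rose by 2.78 ± 0.25 (adjusted p = 2.5e-05), the 1 of 4 of its list to pass. Of 4 crosslinking enzymes none rose in MRTFB dN and 1, LOXL3, fell (adjusted p = 0.044). In MRTFB dN dPY over the Puro vector 1 of the 4, LOXL1, rose (1.69 ± 0.46, adjusted p = 0.016), a call lost in 2 of 13 alternatives. PCOLCE2, on the propeptide list with TLL1, also rose there (2.74 ± 0.51, adjusted p = 0.0025). Of all loci, 21% were higher in that comparison. LOX, the lysyl oxidase, was at 10.5 and 43 FPKM in MRTFB dN, against 8.77 and 54.4 in the Puro vector, with full overlap. It was at 0.5 and 2.7 FPKM in MRTFB dN Y305A/dPY and 1.45 and 1.79 FPKM in MRTFB dN Y305A, below both Puro libraries. LOX fell by 3.30 ± 0.90 (adjusted p = 0.024) and fell by 3.15 ± 0.90 (adjusted p = 0.03) in these forms over the Puro vector. Both calls were lost with the Hygro vector as control (0.18 and 0.23) or without Puro vector replicate 2 (0.13 and 0.15), the first also without its own replicate 1 (0.17) and the second without its replicate 1 (0.16) or 2 (0.07). LOX was also lower in MRTFB dN Y305A than in MRTFB dN (−3.11 ± 0.90, adjusted p = 0.038), not so without MRTFB dN replicate 2 (0.28) or MRTFB dN Y305A replicate 1 (0.14) or 2 (0.12).

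Of 6 tested receptors 3 rose and 2 fell in MRTFB dN (21.8% and 15% of all loci). ITGA1, the alpha subunit of a collagen-binding integrin, was at 20.4 and 22.9 FPKM in MRTFB dN Y305A/dPY, 20.1 and 22.4 in MRTFB dN Y305A, 736 and 667 in MRTFB dN dPY and 578 and 579 in MRTFB dN, against 14.6 and 26 in the Puro vector. The SRF-binding groups stood far above the rest. It rose by 4.82 ± 0.28 (adjusted p = 1.1e-06), at a locus that also carries PELO, and ITGB1, its beta partner, by 2.28 ± 0.42 (adjusted p = 0.0025). DDR1 rose by 1.30 ± 0.35 in MRTFB dN (adjusted p = 0.016) and 1.41 ± 0.35 in MRTFB dN dPY (0.011). It also rose with Y305A, by 1.42 ± 0.35 in MRTFB dN Y305A (0.019) and 1.60 ± 0.35 in MRTFB dN Y305A/dPY (0.011). In YAP 5SA over the Hygro vector DDR1 fell by 1.68 ± 0.35 (0.017). Each of these DDR1 calls was lost in 4 or 5 of 13 alternatives. ITGA2, the alpha subunit of another collagen-binding integrin, fell by 2.00 ± 0.36 in MRTFB dN dPY (adjusted p = 0.0023) and fell by 1.27 ± 0.36 in MRTFB dN (adjusted p = 0.021), the last of these lost without MRTFB dN replicate 1 (0.16) or Puro vector replicate 2 (0.084), or with the Hygro vector as control (0.077). The other that fell was ITGA10, which was tested only because it reached 1 FPKM in the Puro libraries (7.16 and 5.86 FPKM). In YAP 5SA over the Hygro vector, 1 of 36 tested genes of these lists rose and 1 fell (8.21% of all loci). The lists were chosen for their known roles and get no test of their own.

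**Figure D5:**
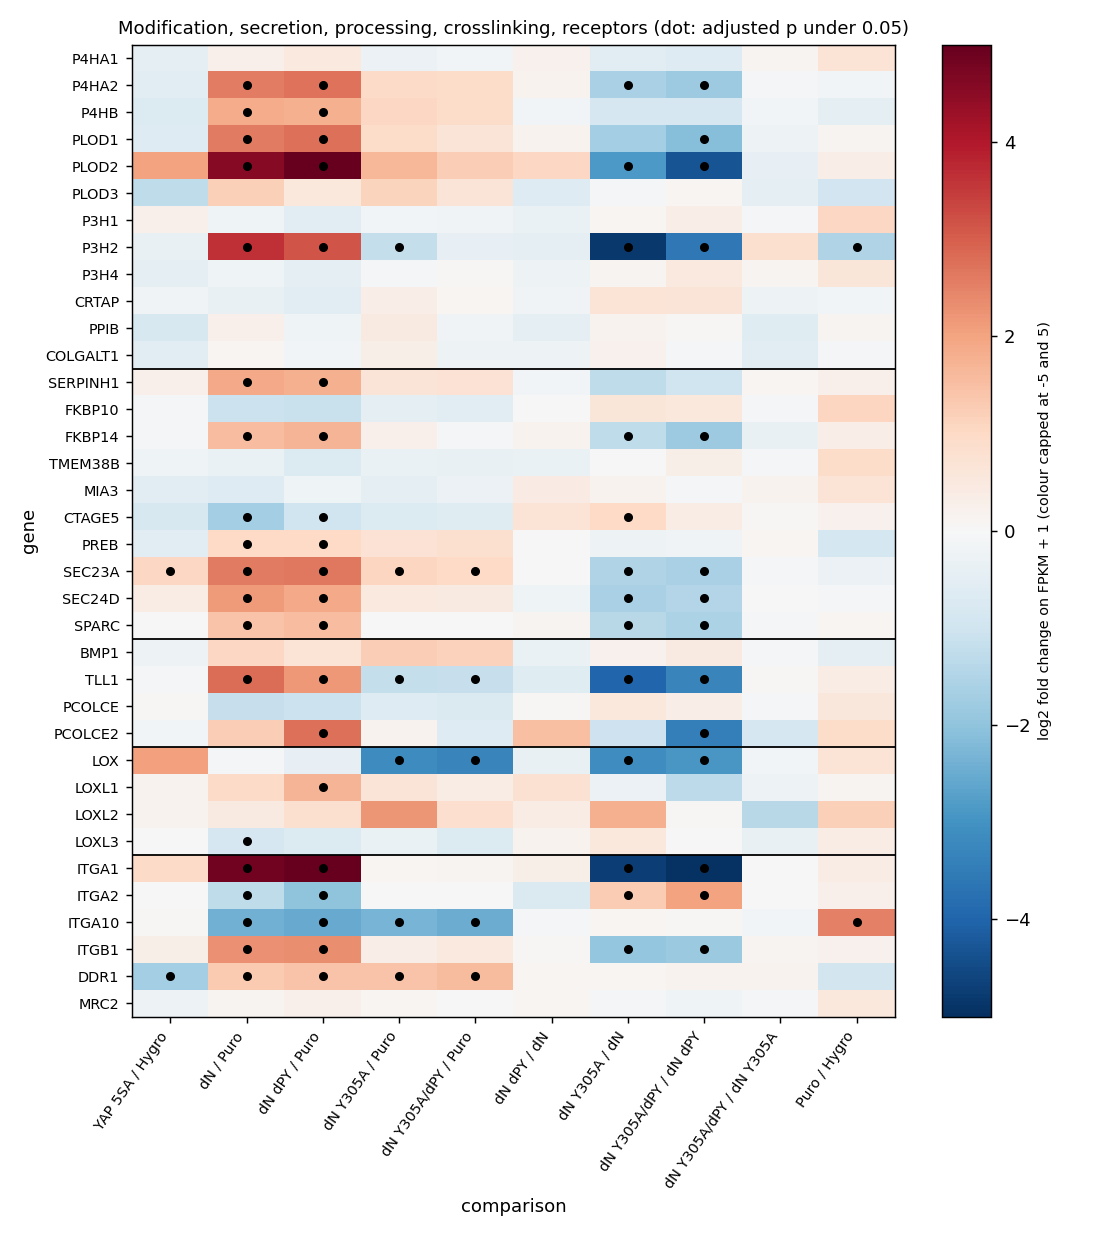
Log2 fold change on FPKM + 1 (colour, capped at 5 either way) of the tested genes that modify, secrete, process, crosslink or bind collagen (rows, in that order of blocks) in 10 comparisons (columns), a dot marking an adjusted p under 0.05. PLOD2, P3H2, TLL1 and ITGA1 are red in MRTFB dN and MRTFB dN dPY over the Puro vector and blue in the Y305A forms over their SRF-binding counterparts.

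Other measures also differed between the groups. The summed FPKM of the 8 basal epithelial markers was 20323 to 47627 in the 4 SRF-binding MRTFB libraries, against 2300 and 3453 with the Puro vector, and was 12360 and 20888 in the Hygro vector. Most of it was KRT17, a keratin, at 17584 to 43206 FPKM in those MRTFB libraries. Of the list, TP63 (−1.90 ± 0.26, adjusted p = 4.3e-04) and ITGB4 (−1.64 ± 0.47, adjusted p = 0.02) were lower in MRTFB dN than in the Puro vector. KRT14 (4.75 ± 1.09, adjusted p = 0.0073), KRT17 (5.22 ± 1.03, adjusted p = 0.0036) and CDH1 (1.68 ± 0.37, adjusted p = 0.0059) were higher. The KRT14 locus also carries the name KRT16, and reads of the pair cannot be separated. KRT5, LAMB3 and EPCAM did not pass. The 8 fibroblast markers summed to 2.88 to 10.7 FPKM in the same MRTFB libraries, against 9.95 and 47.8 with the Puro vector. They summed to 64.7 and 71.7 FPKM under YAP 5SA, against 34 and 19.1 with the Hygro vector. Most of that sum was FAP in every library, at 64 and 70.7 FPKM under YAP 5SA. FAP did not pass in YAP 5SA over the Hygro vector (1.58 ± 0.71, adjusted p = 0.21). DCN, the other fibroblast marker tested, went the other way there and did not pass (−1.34 ± 0.55, adjusted p = 0.17). CDH5, an endothelial marker, was higher in MRTFB dN Y305A/dPY (3.18 ± 0.40, adjusted p = 0.0018), MRTFB dN Y305A (2.86 ± 0.40, adjusted p = 0.003) and MRTFB dN (1.89 ± 0.40, adjusted p = 0.0053) than in the Puro vector, at 2.77 to 14.6 FPKM in their libraries. Scaling by the median of ratios moved the median of all loci in MRTFB dN over the Puro vector to −0.15, against 0.09 unscaled, and turned the direction of no named chain. The part of these markers in the collagen levels was not tested. In bulk RNA, more cells with a transcript and more RNA per cell cannot be told apart.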

How the data were processed

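RNA of 14 libraries in 7 groups was sequenced as stranded poly(A) libraries. The authors deposited FPKM values per locus, on the hg19 build. Bowtie, TopHat, Cufflinks and Cuffnorm were used, per the submitters' processing notes. Versions and annotation are not given in the sources used here. The table holds 34071 loci, of which 27543 are named, and 0 value columns of other samples. FPKM hold no fragment counts, so depth and counting error are unknown. The zeros of MRTFB dN dPY replicate 1 on chromosomes 8, 9 and X and on chromosome 7 after PPIA were treated as missing.

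Values were tested as log2(FPKM + 1) with limma 3.58.1 (R 4.3.3), all groups in 1 fit with an intensity trend and Benjamini-Hochberg adjustment over the 13137 named loci at 1 FPKM or more in at least 2 libraries. The fit had 7 residual degrees of freedom, 6 for loci with a missing library. Sharing the spread across loci added 3.76 prior degrees of freedom. Tables and figures were made with Python 3.11.15, numpy 2.4.6, pandas 2.3.3 and matplotlib 3.10.9.

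The members and gene lists were chosen with earlier results of these data known. Values in every library are given for members with a mean of 3 FPKM or more, or called with a group mean of 3 FPKM or more, and up to 4 called genes are named per handling list and comparison. Other members are given where they passed or bear on a pair. LOXL3, ITGA10, SPARC and the marker genes were named after their values were seen. Promoter sequences are from RefSeq (GRCh38.p14), matched by symbol. Alternatives were another pseudocount, no filter, median-of-ratios scaling, no intensity trend, a fit of the compared groups only, the zeros kept, a replicate block, summed loci, the other vector, COL7A1 and COL17A1 counted as basement membrane, and leaving out each library.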

Additional observations from a re-analysis of the deposited data

Results flagged for a closer look

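For 9 collagen chains the MRTFB dN effect over the Puro vector differed from the YAP 5SA effect over the Hygro vector by the test of that difference (limma, adjusted p under 0.05), on the log2(FPKM + 1) scale. The difference, MRTFB dN effect minus YAP 5SA effect, was 3.61 for COL8A1, 3.47 for COL6A1, 2.54 for COL5A3, 2.46 for COL17A1, 1.81 for COL15A1 and 1.66 for COL3A1. It was −1.63 for COL4A3, −1.79 for COL4A5 and −2.15 for COL4A6. COL3A1 and COL15A1 were tested only through SRF-binding MRTFB libraries. In MRTFB dN directly against YAP 5SA, COL6A1 (1.02, adjusted p = 0.17) and COL4A5 (−1.03, adjusted p = 0.083) did not pass. The call of COL17A1 was lost without MRTFB dN replicate 1, YAP 5SA replicate 1 or 2, Puro vector replicate 1 or Hygro vector replicate 2 (adjusted p of 0.053 to 0.12), and that of COL3A1 without either library of YAP 5SA or of the Hygro vector (0.052 to 0.071). Outlying libraries were not looked for, since the groups hold 2 libraries.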

How the results depend on the processing

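Of 76 collagen results past the threshold, 26 stayed past it under every alternative run and 50 did not under at least 1. Of 77 results on handling genes the numbers were 41 and 36. The 1 reversal was COL15A1 in MRTFB dN dPY against MRTFB dN with the zeros of the empty part kept (−0.65), which sets its missing library to 0. Counts of called chains moved by over 1.5 times as follows. With median-of-ratios scaling, 5 chains passed in MRTFB dN Y305A/dPY and 7 in MRTFB dN Y305A over the Puro vector, and 2 in the Puro vector over the Hygro vector, as with a pseudocount of 0.1. With only the compared groups in the fit, 0 passed in MRTFB dN Y305A/dPY, 0 in MRTFB dN Y305A, 5 in MRTFB dN dPY and 8 in MRTFB dN over the Puro vector, 7 in MRTFB dN Y305A/dPY over MRTFB dN dPY and 0 in the Puro over the Hygro vector. The fit is then left with fewer libraries. Leaving out single libraries gave 1 to 5 in MRTFB dN Y305A/dPY, 2 to 6 in MRTFB dN Y305A, 7 to 11 in MRTFB dN dPY and 10 to 14 in MRTFB dN over the Puro vector. It gave 3 to 4 in YAP 5SA and 1 to 2 in the Puro vector over the Hygro vector, 6 to 10 in MRTFB dN Y305A/dPY over MRTFB dN dPY, 10 to 11 in MRTFB dN Y305A over MRTFB dN, and 5 to 11 for the MRTFB dN minus the YAP 5SA effect. A group left with 1 library is assumed to vary like the others. Equal replicate numbers were not taken as pairs: the correlation of replicate differences was 0.30 to 0.65 among the MRTFB groups and −0.14 to 0.23 otherwise. With the replicate number as a block, 6 chains passed in YAP 5SA, 15 in MRTFB dN and 11 in MRTFB dN dPY over their vectors, and 16 in MRTFB dN Y305A over MRTFB dN. A block within the 4 MRTFB groups, added after the data were seen, gave 15 in the last of these. Depth is unknown and limits low chains most.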

Other observations

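A separate locus of the table also named COL4A2 was at 0 and 1.73 FPKM in MRTFB dN Y305A/dPY, 3.15 and 0.831 in MRTFB dN Y305A, 20.9 and 35.7 in MRTFB dN dPY and 10.7 and 19.3 in MRTFB dN, against 1.39 and 5.03 in the Puro vector. In YAP 5SA it was at 14.2 and 9.67 FPKM, against 1.86 and 1.62 FPKM in the Hygro vector (2.22 ± 0.59, adjusted p = 0.044 with limma), while the main COL4A2 locus did not pass there. COL10A1, a cartilage chain, reached 1 FPKM in 1 library, at 2.09 FPKM in Puro vector replicate 1.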
